A study of Mus musculus with 8 samples.

Results

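The genes described here are the orphan and adhesion G protein-coupled receptors of mouse bone marrow-derived macrophages (BMDMs). They were chosen by name. Every gene in the count table whose symbol is Gpr followed by a number, with or without a final letter a to c, or begins with Adgr was taken, and Adgre1 was left out. This gave 100 genes of 54532, of which 27 are Adgr (adhesion) genes and 73 are Gpr genes. BMDMs are macrophages grown from bone marrow cells in macrophage colony-stimulating factor. RNA was sequenced from untreated BMDMs after 6 days of differentiation, in 4 libraries from wild-type (WT) mice and 4 from mice lacking Gsdmd (Gsdmd-/-), the gene of the pore-forming protein gasdermin D. The methods give female C57BL/6J mice aged 6 to 8 weeks as the source of the macrophages. The WT mice were bought and the knockout line was a gift kept at a university, so colony and genotype cannot be told apart. The labels and the methods leave unsaid if the 4 libraries of a genotype stand for 4 mice, so the p-values below measure only the spread between these libraries.

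G protein-coupled receptors cross the membrane 7 times and pass a signal from outside the cell to a G protein inside it, which then acts on adenylyl cyclases, phospholipases and ion channels. A receptor is called an orphan while no natural ligand is settled for it, and many Gpr symbols were given at that stage and kept after a ligand was proposed. The symbol was also given to proteins of the Golgi and the lysosome that look like receptors but are not known to signal as receptors at the cell surface. Adhesion receptors carry a long outer region that can bind neighbouring cells or matrix, and most cut themselves next to the first membrane helix, which leaves a tethered peptide that can switch the receptor on. Adgre1 encodes F4/80, the adhesion receptor used to recognise mouse macrophages, and had a mean of 280 CPM in these libraries (read counts scaled to a common library size by TMM).

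The libraries held between 14935114 and 16794810 counts, and for a gene without counts a level of up to 0.177 to 0.199 CPM (3 counts, counting error only) remained possible. Gsdmd fell from 75.2 ± 14.1 CPM in WT to 16.2 ± 1.56 CPM in Gsdmd-/- libraries (SD, n = 4 each), and its log2 fold change was -2.22 (adjusted p = 4.67e-05). All 8 macrophage marker genes listed were detected. WT 2 and WT 3 stood apart from the other 6 libraries on the first principal component of log2 CPM, which held 43.6% of the variance, at 45.4 and 38.8 against -25.9 to -7.19. Their summed macrophage markers were the lowest, at 15316 and 17215 CPM against 19385 to 23436 CPM, with Fcgr1 at 7.08 and 6.65 CPM (against 17.8 to 40.7) and Cd68 at 413 and 423 CPM (against 620 to 848), while Mertk was higher, at 249 and 212 CPM (against 101 to 142), as was Adgre1, at 319 and 326 CPM (against 242 to 291). Most of the sum is Lyz2, at 12978 and 14810 CPM (against 16738 to 20736), and Csf1r and Cd14 overlapped. They are labelled as plain WT libraries and were kept, and values without them are given beside those of many genes below. Their summed mast cell or basophil markers (16.04 and 16.3 CPM against 53.4 to 80.4, mostly Kit) and endothelial markers (31.5 and 29.9 CPM against 49.4 to 81.4) were also below those of the other libraries. The lower endothelial sum was that of Kdr alone (23.6 and 21.04 CPM against 44.1 to 77.7), while Tie1 was higher in WT 2 and WT 3 (1.89 and 1.83 CPM against 0.122 to 0.663), as was Pecam1 (0.549 and 0.854 CPM against 0.122 to 0.398), and Cdh5 overlapped (5.37 and 5.85 CPM against 2.78 to 5.77). Of these lists 2 of 5 and 2 of 6 genes were detected, the basophil and mast cell genes Mcpt8 and Fcer1a had 3 and 4 counts over all libraries, and the endothelial gene Tek had 0. The part of these cells or of these genes in the results below was not tested, and in RNA from whole cultures fewer cells of a type and less RNA per cell cannot be told apart.

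Of the 100 receptor genes, 30 were detected, meaning a mean of at least 1 CPM over the 8 libraries. This was 30% of them, against 49.8% of the 21918 protein-coding genes in the table. Counts under that level were found for 48 genes, and 22 had no count in any library. The last group holds receptors of neurons and endocrine cells such as Gpr6, Gpr12, Gpr26, Gpr50 and Gpr158, and also Gpr119, the receptor for oleoylethanolamide in the gut and pancreas. Inside the limit and near it stood Gpr35 at 1.21 CPM, and just outside it Gpr18 at 0.886 CPM and Adgra2 at 0.853 CPM.

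The class with the highest share detected was that of the intracellular multi-pass proteins, with 7 of 9 genes. Among the proton-sensing receptors, which respond to acid outside the cell, Gpr132 and Gpr65 were detected and Gpr4 was not (0.122 CPM). Of the receptors for lipids and metabolites, 2 of 9 were detected, namely Gpr183 and Gpr35. Gpr84, the receptor for medium-chain fatty acids, had 42 counts over all libraries (0.323 CPM), and Gpr34, the receptor for lysophosphatidylserine, had 37 (0.283 CPM). Gpr153, an orphan, had 54 counts (0.415 CPM), and with Gpr84 and Adgrb1 it was one of 3 untested genes with at least 10 counts in a library. Of the peptide and chemokine-like receptors Gpr15 was detected and Gpr1 and Gpr182 were not. None of the 3 class C receptors and none of the 3 receptors known for constant Gs signaling without a ligand was detected. The other 42 Gpr genes included 10 that were detected.

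Among the adhesion receptors, 7 of 27 were detected, and these came from the Adgra (1 of 3), Adgre (1 of 2), Adgrg (3 of 7) and Adgrl (2 of 4) subfamilies. No gene passed in Adgrb (3 genes), Adgrd (2), Adgrf (5) or Adgrv (1). Adgrb1, also called BAI1, a receptor for phosphatidylserine on apoptotic cells, had between 3 and 12 counts per library and 0.353 CPM on average. Adgre4, of the same subfamily as F4/80, had between 1 and 5 counts per library.

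**Figure D1:**
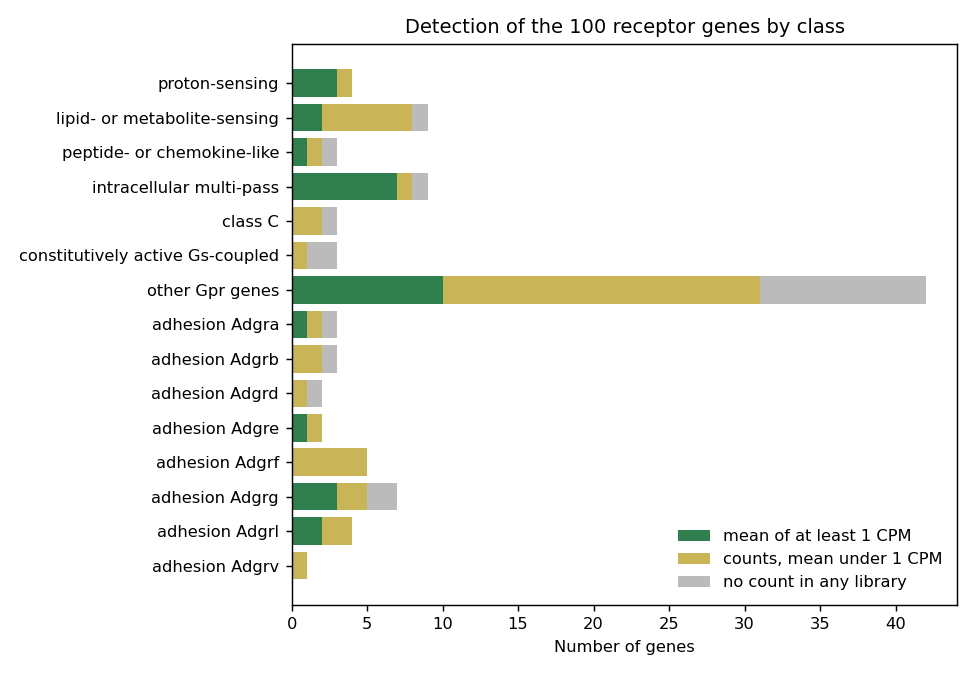
Number of receptor genes in each class (horizontal axis), split into those with a mean of at least 1 CPM over the 8 libraries, those with counts but a mean below 1 CPM, and those with no count in any library. The intracellular multi-pass class has 7 of 9 genes detected, and the largest class, the other Gpr genes, has 10 of 42.

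The detected genes reached up to 374 CPM. A mean of at least 50 CPM was found for 7 genes, 10 to 50 CPM for 10, 5 to 10 CPM for 5 and 1 to 5 CPM for 8. Levels of different genes are compared here as CPM per kilobase of exon. On that scale Gpr137b, whose protein sits in the lysosomal membrane and acts on the Rag GTPases, came first at 74.5. The next were Gpr108 at 22.2, a Golgi protein, and Adgre5 at 18.4, which encodes CD97, the adhesion receptor of leukocytes that binds CD55. Gpr146 followed at 10.7 and Gpr141 at 10.2, and these last 2 overlapped in their libraries.

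Gpr137b also has a copy in the mouse genome, the transcribed pseudogene Gpr137b-ps, which lies on chromosome 13 as Gpr137b does and is not among the 100 genes. Counts of both were close in size, and how reads that match both were counted is not stated, so the level of Gpr137b is uncertain. Gpr137b had 299, 529, 506 and 263 CPM in WT libraries 1 to 4 and 319, 339, 358 and 381 CPM in Gsdmd-/- libraries 1 to 4. Gpr137b-ps had 322, 297, 287 and 275 CPM in WT and 365, 398, 379 and 389 CPM in Gsdmd-/- libraries. Gpr137b thus made up 48.2%, 64.1%, 63.8% and 48.9% of their sum in WT and between 46.0% and 49.5% in Gsdmd-/- libraries. The share was highest in WT 2 and WT 3. Exons of some detected members also overlap those of a detected gene on the opposite strand, Adgre5 with Ddx39 (895 bases), Gpr137 with Bad (524), Gpr15 with Cpox (204) and Gpr89 with Gja5 (165), and the counting is not stated to use strand.

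**Figure D2:**
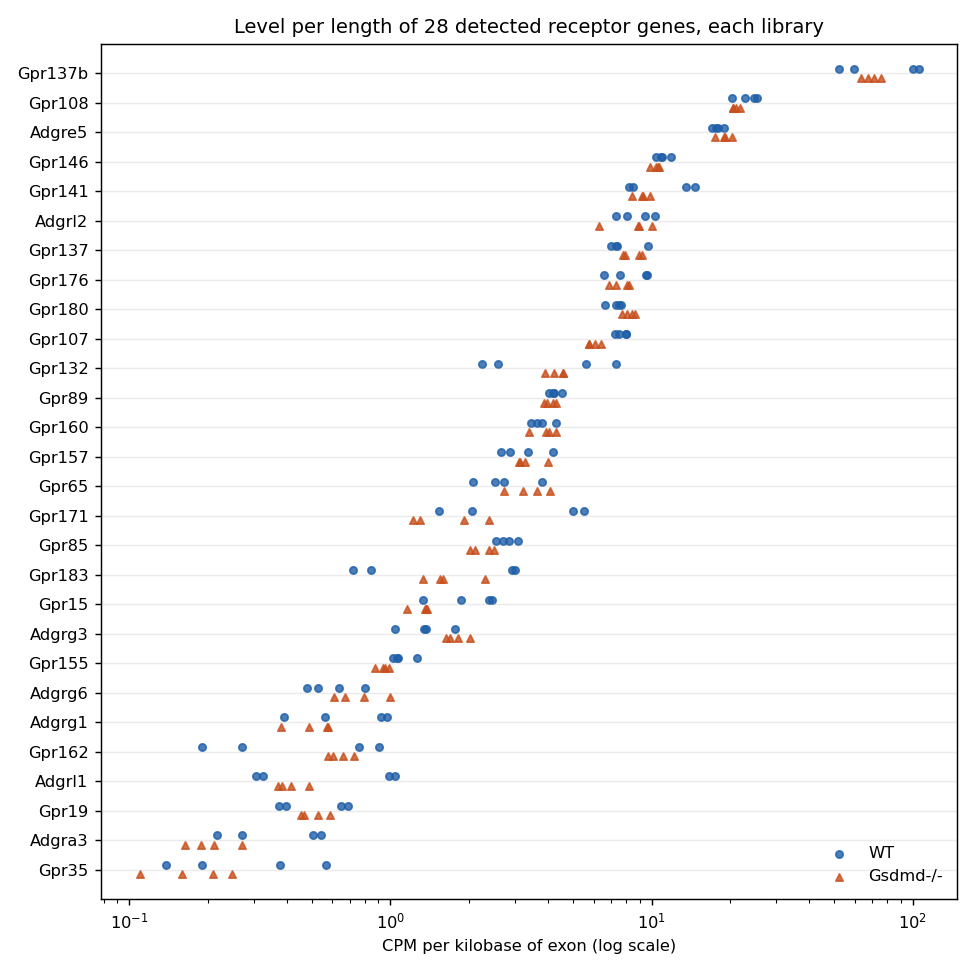
Level of 28 detected receptor genes as CPM per kilobase of exon (log axis), with 1 point per library by genotype. Gpr137b stands highest with a mean of 74.5, followed by Gpr108 at 22.2 and Adgre5 at 18.4, while Gpr35 has the lowest mean, 0.249.

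Other abundant members, Adgrl2, Adgre5 and Gpr146, had close means in the 2 genotypes. Adgrl2, latrophilin 2, an adhesion receptor studied mainly at synapses, had 147, 134, 114 and 103 CPM in WT and 126, 142, 89.6 and 127 CPM in Gsdmd-/- libraries. Adgre5 had 70.9, 67.2, 66.0 and 64.2 CPM in WT and 71.0, 76.2, 65.6 and 72.0 CPM in Gsdmd-/- libraries. Gpr146, a receptor known for its effect on plasma cholesterol in the liver, had 80.2, 74.4, 73.8 and 70.5 CPM in WT and 66.7, 70.7, 72.4 and 71.7 CPM in Gsdmd-/- libraries. The genotypes overlapped for each of these genes, and their log2 fold changes were -0.04 (SE 0.152), 0.09 (SE 0.0775) and -0.09 (SE 0.0748).

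The genotypes were then compared. With the quasi-likelihood test of edgeR, 33 of the 100 genes had enough counts to be tested, namely the 30 detected and Gpr18, Adgra2 and Gpr55. None of the 33 had an adjusted p under 0.05, where 0.349% of the 12911 genes tested passed, and the lowest adjusted p was 0.0861. At an unadjusted p under 0.05 there were 7 genes (12.0% of all genes tested passed), of which 6 were lower and 1 was higher in Gsdmd-/- libraries. The study used as its cutoff an unadjusted p under 0.05 with a log2 fold change of 0.5 or more in either direction. At this cutoff there were 4 genes, Gpr55, Gpr171, Adgra3 and Gpr15, and all 4 were lower in Gsdmd-/- libraries. Gpr55 is in both counts but passed the filter on low counts only through its WT libraries, so its direction is no separate support. Of the 30 detected genes 3 passed this cutoff, all lower in Gsdmd-/-. Of all genes tested 4.83% passed this cutoff, and 3.28% passed it with a lower level in Gsdmd-/-. DESeq2 called 1 of the 33 genes, Gpr107, at an adjusted p under 0.05 (2.26% of all genes), and limma voom called 0 (0.333% of all genes).

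The log2 fold changes of the 33 genes (Gsdmd-/- minus WT) had a median of -0.13 (-0.060 without Gsdmd-/- 1) and were lowest for Gpr55 at -1.47, while the median over all genes tested was -0.0068. They were below 0 in 22 of the 33 genes (66.7%) and in 20 of the 30 detected genes, against 51.5% of all genes tested. For 26 of the 33 the change was smaller than 0.5 in either direction. The 4 libraries of one genotype did not overlap those of the other for 4 genes that were lower in Gsdmd-/- (Gpr55, Gpr107, Gpr85 and Gpr155; 4.11% of all genes) and 1 that was higher (Gpr180; 3.48% of all genes).

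**Figure D3:**
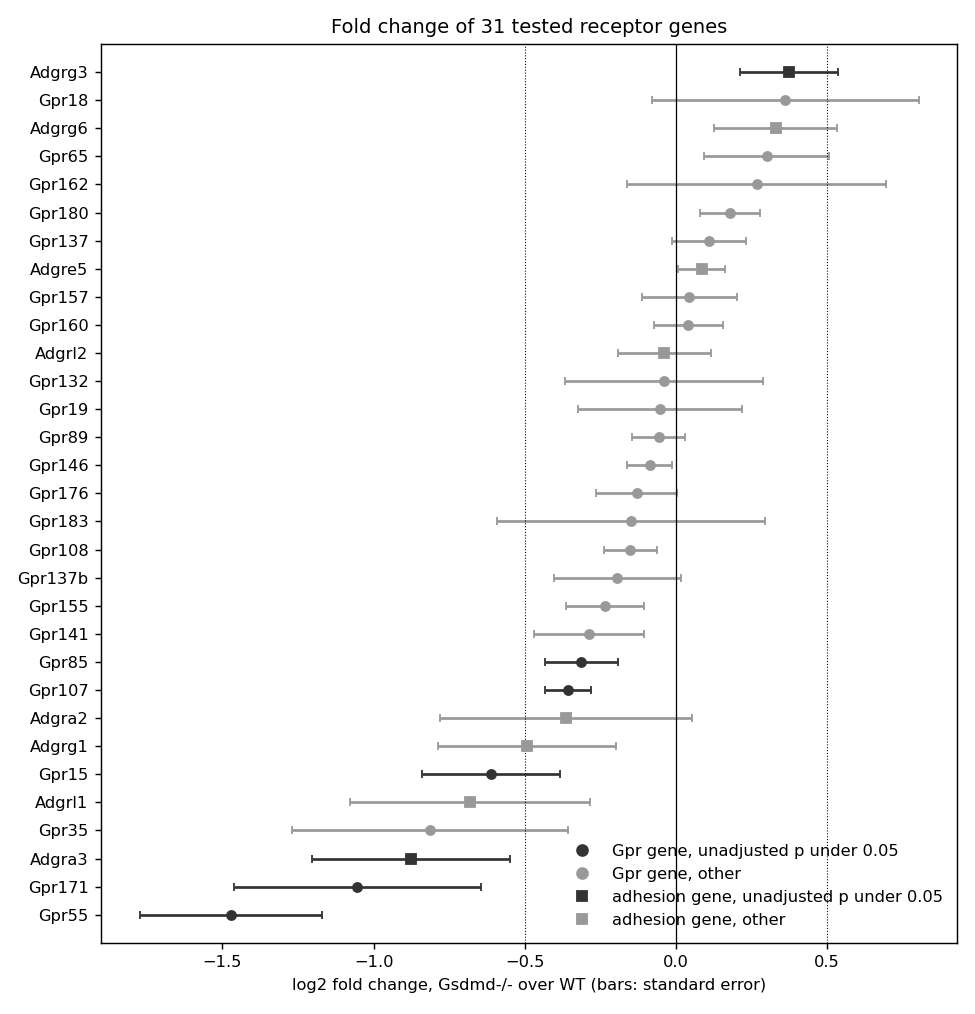
Log2 fold change (Gsdmd-/- minus WT) with its standard error for 31 receptor genes tested by edgeR. The lowest value is -1.47 for Gpr55, Adgrg3 lies at 0.37, and 21 of the 31 lie below 0.

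Promoter sequences of 4 of the genes with the lowest p-values are shown here so that they can be set beside the levels. They come from RefSeq (GRCm38.p6), run 5′ to 3′ on the strand of the gene from 250 bases before to 50 bases after its annotated start, and have each CG dinucleotide in capitals. Gpr55 is at chr1:85961006-85961305 and has 4 CG, Gpr107 is at chr2:31152066-31152365 and has 20, Adgra3 is at chr5:50058947-50059246 and has 34, and Gpr15 is at chr16:58718823-58719122 and has 2. Gpr107 is on the plus strand and the other 3 are on the minus strand.
Gpr55: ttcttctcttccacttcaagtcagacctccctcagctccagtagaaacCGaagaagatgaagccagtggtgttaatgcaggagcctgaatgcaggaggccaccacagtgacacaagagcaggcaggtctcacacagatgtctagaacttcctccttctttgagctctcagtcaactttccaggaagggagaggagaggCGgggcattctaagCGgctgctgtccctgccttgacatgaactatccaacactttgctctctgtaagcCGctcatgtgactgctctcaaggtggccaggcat
Gpr107: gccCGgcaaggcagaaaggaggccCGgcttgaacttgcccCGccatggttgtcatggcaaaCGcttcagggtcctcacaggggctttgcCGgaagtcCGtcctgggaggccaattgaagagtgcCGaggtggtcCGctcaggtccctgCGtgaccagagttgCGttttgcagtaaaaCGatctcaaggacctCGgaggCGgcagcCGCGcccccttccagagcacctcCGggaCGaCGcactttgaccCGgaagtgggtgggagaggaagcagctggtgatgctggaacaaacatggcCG
Adgra3: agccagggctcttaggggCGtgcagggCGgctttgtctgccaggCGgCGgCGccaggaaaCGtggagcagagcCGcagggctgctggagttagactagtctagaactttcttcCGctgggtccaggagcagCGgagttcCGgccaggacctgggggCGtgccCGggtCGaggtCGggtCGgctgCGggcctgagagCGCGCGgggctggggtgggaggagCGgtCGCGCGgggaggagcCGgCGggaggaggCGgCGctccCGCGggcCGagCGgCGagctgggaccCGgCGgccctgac
Gpr15: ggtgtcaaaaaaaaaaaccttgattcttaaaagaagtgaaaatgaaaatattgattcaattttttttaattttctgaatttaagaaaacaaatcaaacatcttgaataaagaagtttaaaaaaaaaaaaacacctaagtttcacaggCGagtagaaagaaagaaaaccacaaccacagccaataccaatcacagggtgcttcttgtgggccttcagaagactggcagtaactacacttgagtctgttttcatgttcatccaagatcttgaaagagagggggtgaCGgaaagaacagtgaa

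CG dinucleotides are dense in the promoters of many genes that are active in most cell types, and sparse in those of many genes used by few cell types. Of the 100 genes, 72 had an entry among the RefSeq promoters, 24 of them detected. Only the first window listed for a gene was counted, and 14 of the 72 had several, so other starts of these genes were not examined. The median number of CG in the 300 bases was 12.5 for the 24 detected genes and 8 for the 48 that were not, against 13 for 17492 protein-coding genes. At least 15 CG were found in 45.8% of the detected, 29.2% of the other members and 47.4% of the protein-coding genes. The letters GAGGAA, the core bound by the macrophage factor PU.1, were searched on both strands (as GAGGAA or TTCCTC) and stood in 29.2% of the detected members, 33.3% of the other members and 27.5% of the protein-coding genes. Of the promoters printed, those of Gpr55 and Gpr107 each held 1 match. These are counts of letters in a window and show no binding.

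Gpr55, a receptor for lysophosphatidylinositol, had the lowest p of the 33 genes (ENSMUSG00000049608, chromosome 1 from 85938318 to 85961007, GRCm38). Its counts were 14, 15, 15 and 19 in WT and 5, 5, 6 and 6 in Gsdmd-/- libraries. These correspond to 0.851, 0.915, 0.915 and 1.15 CPM in WT and 0.296, 0.295, 0.380 and 0.398 CPM in Gsdmd-/- libraries. Every WT library was above every Gsdmd-/- library, but the gene stayed below the detection limit, with 85 counts in all. Its log2 fold change was -1.47 (SE 0.300), and its adjusted p from edgeR was 0.0861. It kept an unadjusted p under 0.05 in all 15 alternatives in which it could be tested, with adjusted p between 0.0704 and 0.339. Only its WT counts let it through the filter on low counts, and it could not be tested with at least 10 counts in every library. The low p-values of Gpr55 thus belong to a gene that was tested because it was high in WT, and they add no separate support.

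Gpr107 encodes a Golgi membrane protein that takes part in endocytosis and in the transport of toxins back towards the Golgi (ENSMUSG00000000194, chromosome 2 from 31152316 to 31218775). It had 96.2, 102, 102 and 92.3 CPM in WT and 73.8, 77.7, 73.3 and 81.7 CPM in Gsdmd-/- libraries. The genotypes did not overlap, and the spread within each was small, with 98.1 ± 4.70 CPM for WT and 76.6 ± 3.90 CPM for Gsdmd-/- libraries (SD, n = 4). The log2 fold change was -0.36 (SE 0.0759), and its adjusted p from edgeR was 0.102. DESeq2 gave the same log2 fold change with an adjusted p of 0.00164. Its close relative Gpr108 had 58.4, 65.1, 70.9 and 72.5 CPM in WT and 60.2, 58.8, 62.6 and 58.8 CPM in Gsdmd-/- libraries. WT 1 was below the Gsdmd-/- libraries and the other 3 WT libraries above them, and the log2 fold change was -0.15 (SE 0.0867, adjusted p = 0.541).

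The other intracellular members included one gene that differed upward without overlap and one downward. Gpr180 had 12.4, 13.7, 14.0 and 14.3 CPM in WT and 14.5, 15.8, 15.1 and 16.2 CPM in Gsdmd-/- libraries. Its log2 fold change was 0.18 (SE 0.0987, adjusted p = 0.526). Gpr155, a cholesterol-sensing protein of the lysosome, had 8.45, 7.08, 6.83 and 7.11 CPM in WT and 6.27, 5.85, 6.59 and 6.36 CPM in Gsdmd-/- libraries. Its log2 fold change was -0.23 (SE 0.128, adjusted p = 0.524), so neither gene passed at either threshold. Gpr137 (27.7 CPM), a relative of Gpr137b, and Gpr89 (22.4 CPM), which encodes a Golgi anion channel, had log2 fold changes of 0.11 and -0.06, which were -0.014 and -0.10 without WT 2 and WT 3.

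Gpr171 had the largest absolute change among the detected genes. It is a small P2Y-like receptor gene on chromosome 3 (59096448 to 59101821, ENSMUSG00000050075). It had 11.1, 3.42, 4.57 and 12.3 CPM in WT and 2.72, 2.89, 4.25 and 5.30 CPM in Gsdmd-/- libraries. WT 1 and WT 4 were above every Gsdmd-/- library, while WT 2 and WT 3 lay among them. The log2 fold change was -1.05 (SE 0.409), with an adjusted p of 0.350. Without WT 2 and WT 3, which leaves 2 WT libraries, it was -1.64 with an adjusted p of 0.0126. It no longer passed the cutoff of the study without WT 1, WT 4, Gsdmd-/- 1 or Gsdmd-/- 2, or with limma voom.

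Gpr141, an orphan receptor of myeloid cells (ENSMUSG00000053101, chromosome 13 from 19749682 to 19824257), also had its highest levels in WT 1 and WT 4, at a higher level than Gpr171. It had 80.7, 50.5, 49.2 and 87.4 CPM in WT and 50.5, 54.8, 59.1 and 55.2 CPM in Gsdmd-/- libraries. WT 1 and WT 4 were above all Gsdmd-/- libraries, WT 3 was below all of them, and WT 2 was level with the lowest. The log2 fold change was -0.29 (SE 0.183, adjusted p = 0.583) with all libraries and -0.62 (adjusted p = 0.0170) without WT 2 and WT 3. In that comparison 2 of the 33 members tested, Gpr141 and Gpr171, had an adjusted p under 0.05, where 1.21% of all genes tested passed. The cutoff of the study was passed by 6 of the 33 (Gpr55, Gpr171, Gpr141, Gpr132, Gpr183 and Gpr35), where 6.19% of all genes did.

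Adgra3 and Gpr15 were lower in Gsdmd-/- libraries at the cutoff of the study, from few counts. Adgra3, also called GPR125 (ENSMUSG00000029090, chromosome 5 from 49959956 to 50059006), is an adhesion receptor linked to Wnt signaling and cell polarity. It had 2.19, 4.09, 4.39 and 1.76 CPM in WT and 2.19, 1.71, 1.52 and 1.33 CPM in Gsdmd-/- libraries. WT 2 and WT 3 were the high libraries here, and WT 1 and WT 4 overlapped the Gsdmd-/- libraries. The log2 fold change was -0.87 (SE 0.327, adjusted p = 0.333), and it was -0.23 (adjusted p = 0.833) without WT 2 and WT 3. The gene also missed the cutoff without WT 2, WT 3, Gsdmd-/- 3 or Gsdmd-/- 4 alone.

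Gpr15, a homing receptor of T cells to the colon (ENSMUSG00000047293, chromosome 16 from 58717433 to 58719070), had 2.19, 3.05, 4.03 and 3.89 CPM in WT and 1.89, 2.24, 2.22 and 2.25 CPM in Gsdmd-/- libraries. WT 1 lay among the Gsdmd-/- values and the other WT libraries above them. The log2 fold change was -0.61 (SE 0.229), with an adjusted p of 0.333. It missed the cutoff without WT 3, WT 4 or Gsdmd-/- 1, where the log2 fold change was -0.50, -0.52 or -0.55, and without WT 2 and WT 3 together, where it was -0.50 (adjusted p = 0.494). Cpox, the gene on the opposite strand, was at 32.1 CPM, and its reads may be among the 355 counts of Gpr15. Lymphoid markers summed to at most 0.486 CPM in every library.

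**Figure D4:**
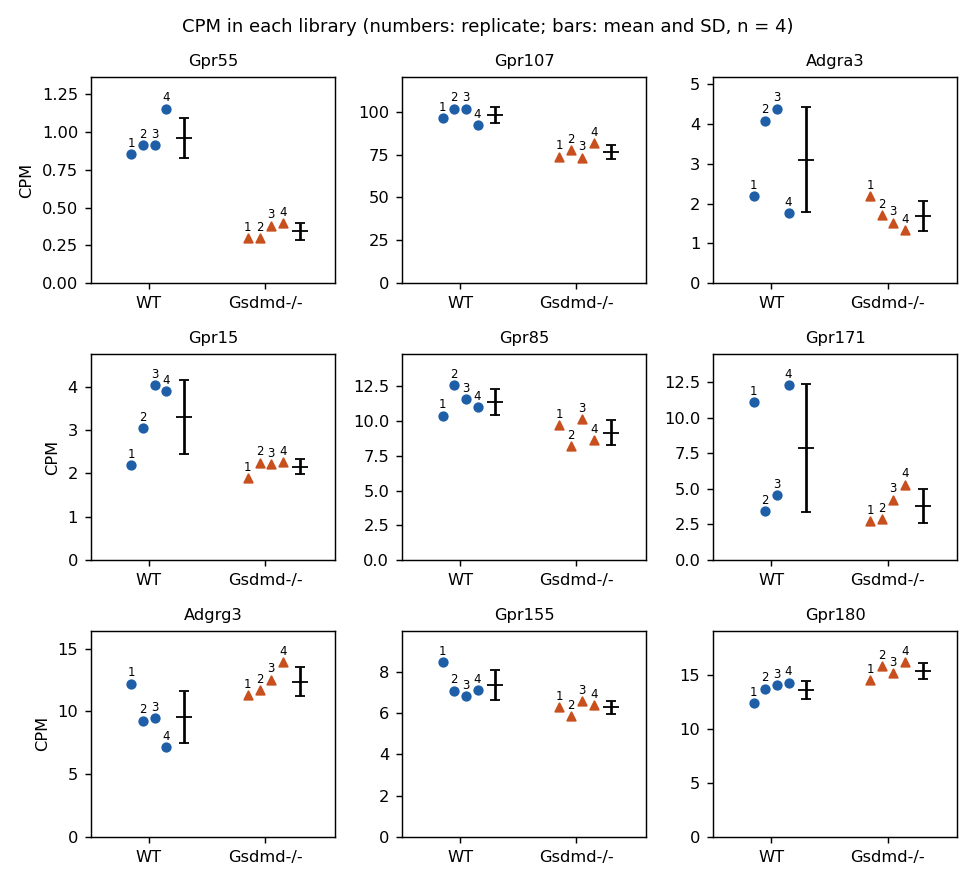
CPM of 9 receptor genes in each of the 4 WT (circles) and 4 Gsdmd-/- (triangles) libraries, numbered by replicate, with the mean and SD beside the points. The genotypes do not overlap for Gpr55, Gpr107, Gpr85, Gpr155 and Gpr180, and in Adgra3 and Gpr171 the WT libraries lie in separate pairs.

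A pair of further genes, Gpr85 and Adgrg3, had an unadjusted p under 0.05 with all libraries, and neither did without WT 2 and WT 3. Gpr85, an orphan receptor conserved among vertebrates and best known from the brain, had 10.4, 12.6, 11.6 and 11.0 CPM in WT and 9.70, 8.21, 10.1 and 8.61 CPM in Gsdmd-/- libraries. All WT values were above all Gsdmd-/- values, with a log2 fold change of -0.31 (SE 0.121, adjusted p = 0.346), and of -0.23 (adjusted p = 0.569) without WT 2 and WT 3. Adgrg3, also called GPR97, an adhesion receptor best known from neutrophils, was the gene on the higher side. It had 12.2, 9.27, 9.45 and 7.17 CPM in WT and 11.3, 11.7, 12.5 and 13.9 CPM in Gsdmd-/- libraries. WT 1 lay among the Gsdmd-/- values and the other 3 WT libraries below them, and the log2 fold change was 0.37 (SE 0.161, adjusted p = 0.392), and 0.34 (adjusted p = 0.551) without WT 2 and WT 3. Neutrophil markers summed to between 4.25 and 6.67 CPM in every library, but nearly all of this was S100a8 (775 counts over all libraries). S100a9 had 5 counts, Elane, Mpo and Camp had 1 each, and Ly6g had 0, so 1 of the 6 markers was detected.

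The other detected adhesion receptors had overlapping genotypes. Adgrg6, also called GPR126 and known from Schwann cell myelination, had 7.46 ± 1.74 CPM in WT and 9.37 ± 2.09 CPM in Gsdmd-/- libraries. Adgrg1, also called GPR56, had 3.85 ± 1.52 CPM in WT and 2.74 ± 0.497 CPM in Gsdmd-/-, with a log2 fold change of -0.49 that became 0.08 without WT 2 and WT 3. Adgrl1, latrophilin 1, had 2.61, 8.48, 8.96 and 2.80 CPM in WT and 3.31, 3.19, 4.18 and 3.58 CPM in Gsdmd-/- libraries. WT 2 and WT 3 were high and WT 1 and WT 4 were below every Gsdmd-/- library, and the log2 fold change of -0.68 (SE 0.396, adjusted p = 0.547) became 0.39 (adjusted p = 0.488) without WT 2 and WT 3.

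The proton sensors Gpr132 and Gpr65 passed neither threshold with all libraries. Gpr132 had 15.2, 6.10, 7.01 and 19.9 CPM in WT and 11.5, 10.6, 12.5 and 12.4 CPM in Gsdmd-/- libraries. WT 1 and WT 4 were above all Gsdmd-/- libraries and WT 2 and WT 3 below them, so that the means were close (log2 fold change -0.04, SE 0.329, adjusted p = 0.976). Without WT 2 and WT 3 Gpr132 passed the cutoff of the study, with a log2 fold change of -0.58 (adjusted p = 0.0903). Gpr65, also called TDAG8, had 5.74 ± 1.52 CPM in WT and 7.07 ± 1.22 CPM in Gsdmd-/-, with a log2 fold change of 0.30 (SE 0.207), and of 0.066 without WT 2 and WT 3.

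Of the lipid and metabolite receptors, Gpr183, the oxysterol receptor also called EBI2, had 8.69, 2.44, 2.07 and 8.45 CPM in WT and 3.85, 4.49, 6.65 and 4.57 CPM in Gsdmd-/- libraries. Again WT 1 and WT 4 were above all Gsdmd-/- libraries and WT 2 and WT 3 below them (log2 fold change -0.15, SE 0.445, adjusted p = 0.927). Without WT 2 and WT 3 the log2 fold change was -0.81 (adjusted p = 0.118) and Gpr183 passed the cutoff of the study. Gpr35, for which kynurenic acid was proposed as a ligand, had 30, 15, 11 and 45 counts in WT and 9, 13, 16 and 18 counts in Gsdmd-/- libraries. Its log2 fold change was -0.81 (SE 0.456, adjusted p = 0.533), and -1.38 (adjusted p = 0.124) without WT 2 and WT 3, where it passed the cutoff of the study. Gpr18 had a log2 fold change of 0.36 (SE 0.441) at 0.886 CPM, and of -0.24 without WT 2 and WT 3.

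Other orphan Gpr genes were Gpr176 at 31.0 CPM, Gpr160 and Gpr157 at 16.3 CPM each, Gpr162 at 2.25 CPM and Gpr19 at 1.51 CPM. Gpr176, a receptor of the circadian clock in the brain, had 25.7, 37.1, 37.5 and 29.4 CPM in WT and 26.7, 28.5, 31.5 and 31.9 CPM in Gsdmd-/- libraries, with WT 2 and WT 3 highest.

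The WT libraries differed among themselves more than the Gsdmd-/- libraries did. The coefficient of variation was larger in WT than in Gsdmd-/- for 24 of the 30 detected genes (80.0%), against 72.5% of all 12039 detected genes. Its median over the 30 genes was 24.5% in WT and 9.54% in Gsdmd-/-, against 15.7% and 10.4% over all detected genes. It reached at least 50% among WT libraries for 7 of the 30, among them Gpr183, Gpr162, Gpr35, Adgrl1, Gpr171 and Gpr132, and for 4.54% of all detected genes. Among Gsdmd-/- libraries it reached 50% for none of the 30 and for 0.922% of all detected genes. WT 2 and WT 3 were the 2 highest of the 8 libraries for 7 of the 30 genes (23.3%, against 18.3% of all detected genes) and the 2 lowest for 6 (20%, against 18.2%).

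**Figure D5:**
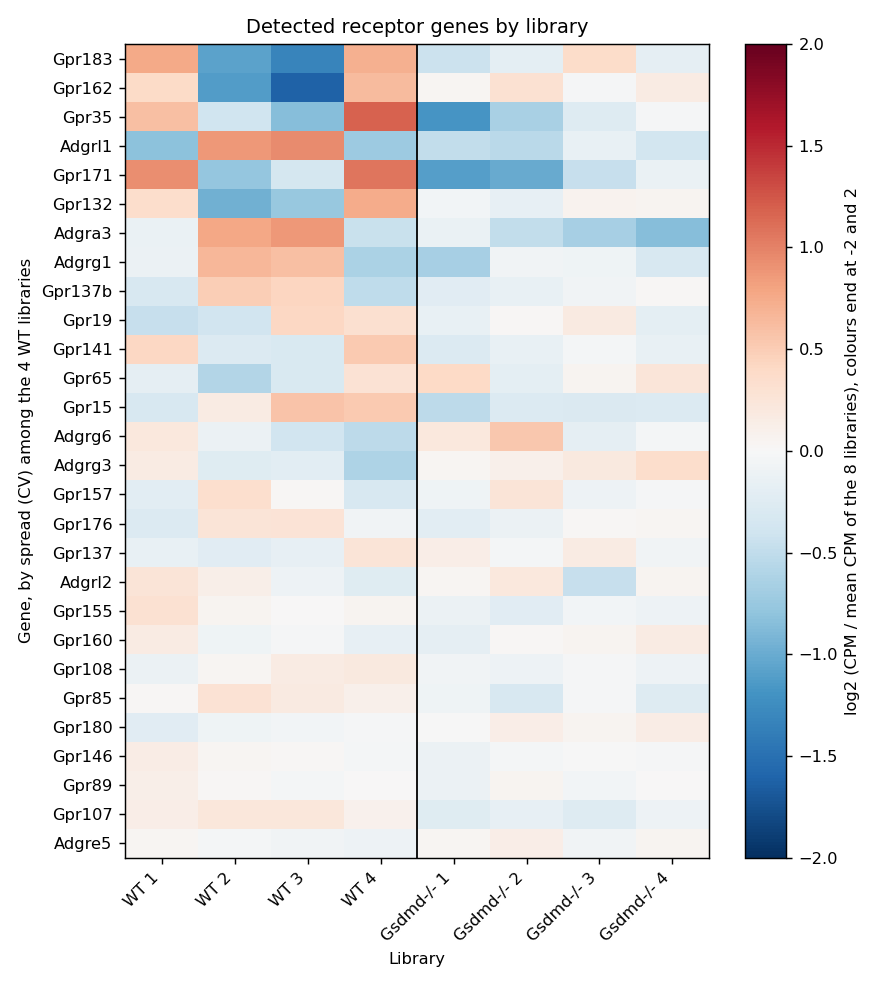
Heat map of 28 detected receptor genes (rows, from the largest to the smallest coefficient of variation among WT libraries) in the 8 libraries (columns), coloured by log2 of CPM over the mean CPM of all libraries and limited to -2 and 2. In the upper rows WT 2 and WT 3 are far from WT 1 and WT 4, as for Gpr183 and Adgrl1, while Gpr107 at the bottom varies little within a genotype.

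The proteins through which these receptors signal were examined as a separate list of 87 genes of G protein subunits, receptor kinases, arrestins, RGS proteins, adenylyl cyclases, cAMP phosphodiesterases and phospholipase C beta, with 3 enzymes that make or modify the oxysterol ligand of Gpr183. Of these 50 were detected and 53 tested, 26 with a log2 fold change above 0 and 27 below, with a median of -0.0185. No gene had an adjusted p under 0.05 with edgeR, and 7 of the 53 (13.2%, against 12.0% of all genes tested) had an unadjusted p under 0.05. DESeq2 called 2, Grk5 and Rgs1 (3.77%, against 2.26%). At the cutoff of the study there were 4 (7.55%, against 4.83%), but 0 without WT 2 and WT 3, and 1, Rgs1, without either of them alone. Grk5, a receptor kinase, had 26.7 ± 4.77 CPM in WT and 18.8 ± 1.04 CPM in Gsdmd-/- (log2 fold change -0.51, adjusted p = 0.174, and -0.27 without WT 2 and WT 3). Plcb3, a phospholipase C beta, had 38.7 ± 7.72 CPM in WT and 27.3 ± 2.06 CPM in Gsdmd-/- (-0.50, adjusted p = 0.209, and -0.23 without them). Adcy4, an adenylyl cyclase, had 13.6 ± 7.30 CPM in WT and 7.58 ± 0.708 CPM in Gsdmd-/- (-0.84, adjusted p = 0.364, and 0.05 without them). WT 2 and WT 3 had 20.3 and 19.5 CPM of Adcy4, and WT 1 and WT 4 had 7.78 and 6.81 CPM, close to the 6.86 to 8.55 CPM of the Gsdmd-/- libraries. Rgs1, which speeds the switching off of G alpha subunits, was on the higher side, with 138 ± 40.2 CPM in WT and 227 ± 41.1 CPM in Gsdmd-/- (0.72, adjusted p = 0.209, and 0.41 without WT 2 and WT 3). The 4 adenylyl cyclases tested had log2 fold changes below 0, where 51.5% of all genes tested did, and none had an adjusted p under 0.05. With all libraries they were -0.37 for Adcy7, -0.55 for Adcy9, -0.69 for Adcy3 and -0.84 for Adcy4, and without WT 2 and WT 3 they were -0.05 for Adcy7, -0.30 for Adcy9, 0.48 for Adcy3 and 0.05 for Adcy4.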

How the data were processed

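The members and gene lists were chosen with earlier results of these data known. The deposited table holds unnormalized whole-number read counts per gene, which the authors had made from TruSeq libraries of total RNA. The submitters' processing notes name the build mm10, while the aligner, counter, annotation and strand setting are not given in the sources used here. Positions and exon lengths were taken from GENCODE M21 (GRCm38). Low genes were removed by filterByExpr and libraries scaled by TMM (edgeR 4.0.16 under R 4.3.3), and the genotypes were compared by the two-sided quasi-likelihood test across 12911 genes with Benjamini-Hochberg adjustment. Depth was 14935114 to 16794810 counts per library, and log2 CPM used a prior count of 2. Detected members (mean of at least 1 CPM) were named. The values of some members are not reported here. Values per library were given for members with an unadjusted p under 0.05 or no overlap, for the 8 most abundant and for the 5 largest changes, and others were added after their values were seen. Alternatives were limma voom 3.58.1, DESeq2 1.42.0, RLE and upper-quartile normalization, other filters and detection limits, a replicate block, a log2 fold change of at least 1, and leaving out each library, or WT 2 and WT 3. The tests were run on simulated data first.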

Additional observations from a re-analysis of the deposited data

Results flagged for a closer look

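In 33 genes and 2 genotypes, 66 groups of 4 libraries were examined for a value far from the other 3, and 2 were found, where chance alone marks about 1 group in 20. Gpr137 had 33.01 CPM in WT 4 against 23.7 to 25.04 CPM in the other WT libraries. Gpr15 had 1.89 CPM in Gsdmd-/- 1 against 2.22 to 2.25 CPM in the other Gsdmd-/- libraries. Gpr137 shares 524 bases of exon with Bad on the opposite strand.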

How the results depend on the processing

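Between 27 and 33 members were detected under the other limits and with libraries left out. The number of members with an adjusted p under 0.05 was 1 with DESeq2 (Gpr107), 2 without WT 2 and WT 3 (Gpr141 and Gpr171) and 0 in the other 14 alternatives. At the cutoff of the study it was 2 with a log2 fold change of at least 1 (Gpr171 and Gpr55) and 2 to 5 with 1 library left out, with the lowest number without Gsdmd-/- 1. The median log2 fold change of the members was -0.14 to -0.060 with 1 library left out, and -0.060 without Gsdmd-/- 1. Without WT 2 and WT 3 the log2 fold change turned to 0.31 for Gpr137b, 0.10 for Gpr176 and 0.39 for Adgrl1. Outside the 19 members counted below, it also turned for Gpr162 (0.27 to -0.38), Adgra2 (-0.36 to 0.08), Adgrg1, Gpr18 and Gpr137. The log2 fold change of Adgrl2 turned to 0.05 without WT 1 and 0.085 without Gsdmd-/- 3 (range -0.13 to 0.085). Of 301 values for 19 named members, 293 kept their sign and their side of the adjusted threshold, 5 changed sign and 3 came to pass it. Of all genes tested, 45 had an adjusted p under 0.05, against 292 with DESeq2, 109 with no filter, 25 with the replicate block, 161 without WT 2 and WT 3 and 14 to 84 with 1 library left out. At the cutoff of the study 623 passed, against 1204 with no filter, 199 with a log2 fold change of at least 1 and 469 to 1022 with 1 library left out. Of the G protein signaling genes, DESeq2 called 2 and the fit without WT 2 and WT 3 called 1 at the adjusted threshold. At the cutoff of the study 4 passed, against 2 with voom, 2 with upper-quartile normalization, 2 with the replicate block, 0 without WT 2 and WT 3, 0 with a log2 fold change of at least 1 and 1 to 9 with 1 library left out. The causes were not tested. The labels do not say if the replicate numbers pair the samples. Correlations of deviations were 0.0268, 0.182, 0.0412 and -0.201 for equal numbers and between -0.253 and 0.333 for unequal ones. This gave no sign of pairing but cannot exclude it. With the replicate block 0 members passed the adjusted threshold and 4 the cutoff of the study. The 67 members with too few counts for the test were not compared, apart from the fit with no filter, where 1 of them, Gpr17, passed the cutoff of the study on 6 counts in WT and 0 in Gsdmd-/- libraries.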
